A study of Mus musculus with 12 samples.

Results

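The genes described here are 10 members of the rapid transcriptional response of liver: the AP-1 subunits Fos, Fosb, Jun, Junb and Jund, the related factor Atf3, the zinc finger factor Egr1, and the fast-induced genes Ier2, Btg2 and Zfp36. They were taken as the probesets whose only gene in the platform annotation is a member, with the brightest probeset standing for each gene. All 10 were found, out of 18194 genes named by a single-gene probeset. The livers came from male C57BL/6 mice on a 12-hour light and 12-hour dark cycle, measured on 1 Affymetrix array each. The 6 control mice received no antibiotic, and the other 6 drank water with a low dose of penicillin after weaning; all were killed after 7 weeks of intervention. The labels state neither the dose nor the hour of death nor the cages. Values are log2 intensities after the authors' RMA processing. Whole liver was measured, so less RNA per cell and fewer cells of a type cannot be told apart.

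Rapid-response genes lie idle in resting cells and are switched on without new protein synthesis when growth factors, stress or calcium signals activate MAP kinases and the transcription factors SRF and CREB. Their products form the next layer of control: Fos and Jun proteins pair through leucine zippers into AP-1 and bind DNA, Egr1 binds GC-rich sites, and proteins such as Zfp36 and Btg2 speed the decay of messenger RNA. In liver they are known for their burst after partial hepatectomy and after injury.

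The start regions of Fos, Junb, Btg2, Atf3 and, for comparison, Jun are shown, as a CREB site is a known route of fast induction. RefSeq windows of assembly GRCm38.p6, from 250 bases before to 50 bases after the annotated start, were used for 8 of the 10 members, all but Egr1 and Ier2. Capitals mark TGACG or its reverse complement CGTCA, the core of the cyclic AMP response element to which CREB and ATF proteins bind. The windows lie at chr12:85473640-85473939 (plus strand) for Fos, chr8:84978699-84978998 (minus) for Junb, chr1:134079106-134079405 (minus) for Btg2, chr1:191183284-191183583 (minus) for Atf3 and chr4:95052173-95052472 (minus) for Jun, and are written 5′ to 3′ along the gene. Jun, which has no match, is shown for comparison.
Fos: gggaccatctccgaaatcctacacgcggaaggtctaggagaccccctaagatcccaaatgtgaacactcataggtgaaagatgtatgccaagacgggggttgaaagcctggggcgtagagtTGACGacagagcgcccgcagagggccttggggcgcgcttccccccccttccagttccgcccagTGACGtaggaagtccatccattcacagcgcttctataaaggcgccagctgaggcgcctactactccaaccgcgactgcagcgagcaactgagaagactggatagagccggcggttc
Junb: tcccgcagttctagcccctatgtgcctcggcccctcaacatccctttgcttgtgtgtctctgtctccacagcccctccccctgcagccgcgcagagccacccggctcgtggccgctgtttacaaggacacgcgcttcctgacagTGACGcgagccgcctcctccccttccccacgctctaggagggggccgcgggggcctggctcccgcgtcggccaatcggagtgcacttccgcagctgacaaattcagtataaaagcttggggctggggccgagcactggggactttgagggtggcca
Btg2: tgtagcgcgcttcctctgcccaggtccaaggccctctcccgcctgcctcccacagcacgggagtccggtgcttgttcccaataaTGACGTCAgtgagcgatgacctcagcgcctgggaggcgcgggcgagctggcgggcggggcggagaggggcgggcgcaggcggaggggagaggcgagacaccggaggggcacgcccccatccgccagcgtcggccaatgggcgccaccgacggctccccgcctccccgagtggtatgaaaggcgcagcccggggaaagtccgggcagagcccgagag
Atf3: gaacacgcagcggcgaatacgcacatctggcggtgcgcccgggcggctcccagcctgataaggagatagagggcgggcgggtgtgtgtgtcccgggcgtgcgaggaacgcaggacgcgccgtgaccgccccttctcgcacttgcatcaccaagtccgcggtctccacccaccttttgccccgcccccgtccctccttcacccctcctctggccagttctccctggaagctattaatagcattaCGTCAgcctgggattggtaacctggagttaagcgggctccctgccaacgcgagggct
Jun: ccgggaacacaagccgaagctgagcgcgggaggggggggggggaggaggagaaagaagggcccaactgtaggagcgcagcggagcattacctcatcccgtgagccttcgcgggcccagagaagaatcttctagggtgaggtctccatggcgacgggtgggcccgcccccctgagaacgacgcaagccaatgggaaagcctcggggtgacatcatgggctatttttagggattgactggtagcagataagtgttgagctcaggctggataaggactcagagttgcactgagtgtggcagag
Searched on both strands, this core was present in 5 of the 8 windows (Fos, Fosb, Junb, Btg2 and Atf3), against 20.8% of all 32851 windows of the table. Fos held it at 129 and 66 bases before the start, and Atf3 at 7 bases before it. Btg2 alone held the full palindrome TGACGTCA, 166 bases before the start, which overlaps the core on both strands; 1.79% of all windows hold it. The Egr site GCGNGGGCG was found in Btg2, Fosb and Zfp36 (5.55% of all windows), and the SRF-binding CArG box in Zfp36 (1.63%). The AP-1 site TGANTCA was in 0 of the 8 windows (7.81% of all), which says only that these letters are not in these 300 bases. The same limit holds for every motif: sites more than 250 bases before the start, and the start regions of Egr1 and Ier2, were not searched. The matches describe sequence and were not tied to any measured level.

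Control 1, control 3 and control 5 stood apart from the other arrays by the genes described here, and the main results below are given with and without them. Control 1 and control 3 were also the closest pair over all genes, typically 0.10 log2 units apart per gene (median of absolute differences); penicillin 5 and penicillin 6 were equally close after rounding, and all were kept as separate samples. Hepatocyte markers were high in every array: 7 of 8 were measured, with a summed intensity of 133041 to 140255 in controls and 133866 to 139790 with penicillin. The difference between the 3-prime and 5-prime signal of beta-actin, a sign of RNA integrity, ran from 0.86 to 1.01 in controls and from 0.88 to 1.02 with penicillin. In control 1, control 3 and control 5 it was 0.97, 0.91 and 0.86, within the range of the other arrays apart from control 5, the lowest of all.

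Among the Fos proteins, which cannot pair with each other and need a Jun partner, Fos itself showed the widest range. Its lowest control was at 6.53, the median at 9.38 and the highest at 11.85, whereas the penicillin arrays ran from 5.84 through a median of 6.09 to 6.79. Control 5, control 3 and control 1 were the 3 highest of the 12 arrays at 11.85, 11.33 and 11.29, and the next array was control 4 at 7.46. Of the penicillin arrays, 5 lay below every control, and penicillin 2 overlapped with control 2. Controls averaged 9.22 ± 2.51 and penicillin arrays 6.19 ± 0.33 (SD, n = 6), a log2 difference of -3.03 (95% interval -4.99 to -1.07; limma adjusted p = 0.511). Fosb, the close relative of Fos, was dim: its highest array reached 4.36, under the filter level of 4.73, and the files hold no detection calls, so its level cannot be told from background. Its controls ran from 3.21 through 3.51 to 4.36 and its penicillin arrays from 3.27 through 3.41 to 3.74. Control 5 and control 3 were again the highest, while control 1, at 3.53, lay within the penicillin range. The difference of -0.19 (95% interval -0.57 to 0.18) came from the table without a filter.

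The 3 Jun proteins, which bind DNA as pairs with each other or with Fos, differed among themselves. Jun, the strong activator of the family, ran from 7.41 through 8.61 to 9.65 in controls and from 7.07 through 7.46 to 8.29 with penicillin. Control 5, control 3 and control 1 were highest, and penicillin 4 lay above control 2, control 4 and control 6. The log2 difference was -1.03 (95% interval -1.91 to -0.16; limma adjusted p = 0.584). Junb, often a brake on Jun, held both extremes in the control group: its controls ran from 5.58 in control 4, the lowest of all 12 arrays, through 7.88 to 10.12 in control 3. Its penicillin arrays lay close together, from 6.17 through 6.39 to 6.79, and the difference was -1.64 (95% interval -3.05 to -0.23; limma adjusted p = 0.585). Jund, the member of the family that is expressed steadily in resting cells, had the smallest control SD of the members above the filter. It ran from 9.23 through 9.88 to 10.43 in controls and from 9.27 through 9.58 to 10.11 with penicillin. Control 3 and control 1 were its highest arrays, but control 5, at 9.78, lay within the penicillin range, and the difference was -0.29 (95% interval -0.73 to 0.14; limma adjusted p = 0.757).

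Egr1, which controls growth and stress genes through GC-rich sites, ran from 8.0 through 11.43 to 13.32 in controls and from 7.63 through 8.08 to 9.04 with penicillin. Control 1 and control 3 both stood at 13.3 and control 5 at 12.95, and control 2 came next at 9.91, above every penicillin array. The difference was -2.80 (95% interval -4.79 to -0.82; limma adjusted p = 0.558), with 2 penicillin arrays below every control. Atf3, a stress-induced partner of Jun that mostly represses, split the controls most evenly: control 1, control 3 and control 5 stood at 8.02, 7.98 and 8.06, and control 2, control 4 and control 6 at 5.5, 5.47 and 5.39. The penicillin arrays ran from 4.88 through 5.66 to 5.95 and so covered the level of the latter controls. Its difference was -1.23 (95% interval -2.38 to -0.09; limma adjusted p = 0.594).

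Ier2, a nuclear protein induced at once by growth factors, ran from 8.33 through 9.59 to 11.00 in controls and from 8.03 through 8.51 to 8.72 with penicillin, a difference of -1.28 (95% interval -2.24 to -0.32; limma adjusted p = 0.570). Its 3 highest arrays were control 3, control 1 and control 5, and 2 penicillin arrays lay below every control. Btg2, which slows the cell cycle and recruits the enzymes that remove poly(A) tails, ran from 7.09 through 9.36 to 12.76 in controls and from 7.23 through 7.64 to 8.28 with penicillin. Control 1 and control 3 stood at 12.76 and 12.70, control 5 well below them at 10.15, and control 4 was the lowest of the 12 arrays. The difference was -2.18 (95% interval -4.07 to -0.28; limma adjusted p = 0.588). Zfp36, also called tristetraprolin, which binds AU-rich messages of cytokines and hastens their decay, ran from 8.54 through 9.90 to 10.89 in controls and from 8.36 through 8.85 to 9.57 with penicillin. Its highest arrays were control 1, control 3 and control 5, and its difference was -0.94 (95% interval -1.80 to -0.07; limma adjusted p = 0.594).

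**Figure D1:**
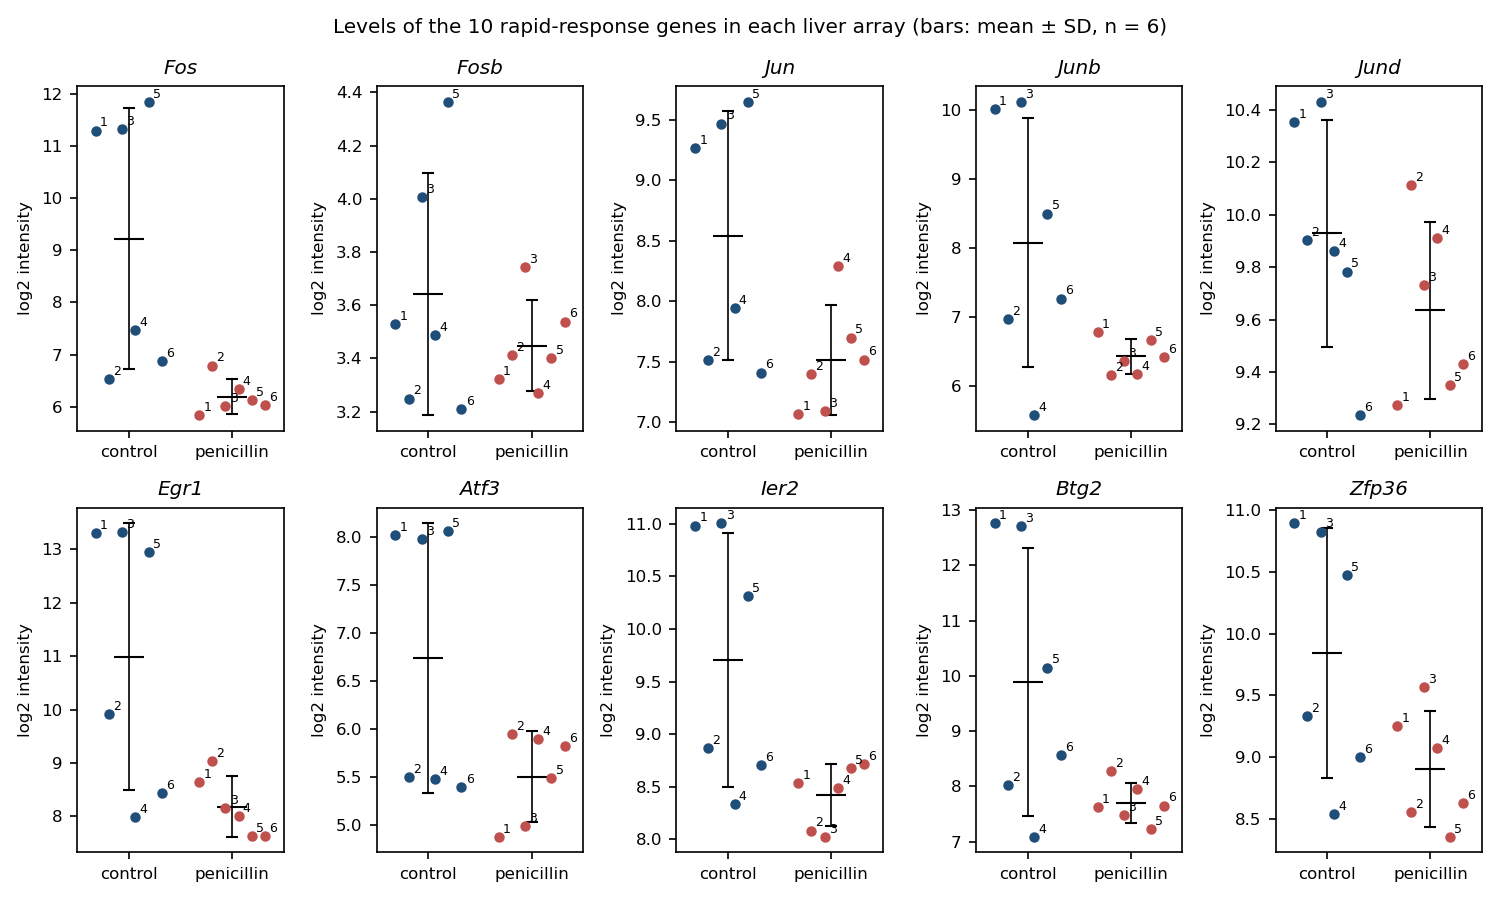
Log2 intensity of each gene (vertical axis, its own scale in each panel) in the 6 control and 6 penicillin arrays; points are arrays labelled by replicate number, and bars give the mean ± SD. For Fos, control 1, control 3 and control 5 sit at 11.29 to 11.85 and the penicillin arrays at 5.84 to 6.79.

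The comparison of penicillin with control asks whether the antibiotic group differed in these genes. In mean level all 10 members were lower with penicillin, 7 of them by 1 or more on the log2 scale, and the median difference was -1.26, beside 0.0064 over all 11899 genes tested. Of all genes tested 47.2% were lower and 0.294% lower by 1 or more. None of the members passed: limma called 0 of the 9 that entered the filtered table, as it called 0% of all genes, although 8 of them had an unadjusted p under 0.05, against 3.66% of all genes on the lower side. Adjusted p-values ran from 0.511 for Fos to 0.897 for Fosb. The groups overlapped for all 10 members (0.151% of genes tested had every penicillin array below every control). Every member had at least 1 control above all penicillin arrays, but this was not counted over all genes tested, so it has no baseline. These members were chosen with this contrast known, so the counts describe them and are no added support.

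The differences were smaller without the 3 high controls. Those arrays are set aside here for the levels of these same genes, so the values without them are a description. Without control 1, control 3 and control 5 the median difference over the 10 members was -0.14. The differences were then -0.77 (SE 0.23) for Fos and -0.60 (SE 0.43) for Egr1, and -0.03 to -0.21 for Jun, Junb, Jund, Ier2, Btg2 and Zfp36. Atf3 and Fosb turned to 0.046 and 0.13. Fos was the 1 member with an unadjusted p under 0.05 there, and 0 members passed (limma adjusted p = 0.997 for Fos). No single array accounted for the direction: with each array left out in turn Fos stayed between -3.57 and -2.51, Egr1 between -3.40 and -2.34, and Btg2 between -2.74 and -1.60.

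**Figure D2:**
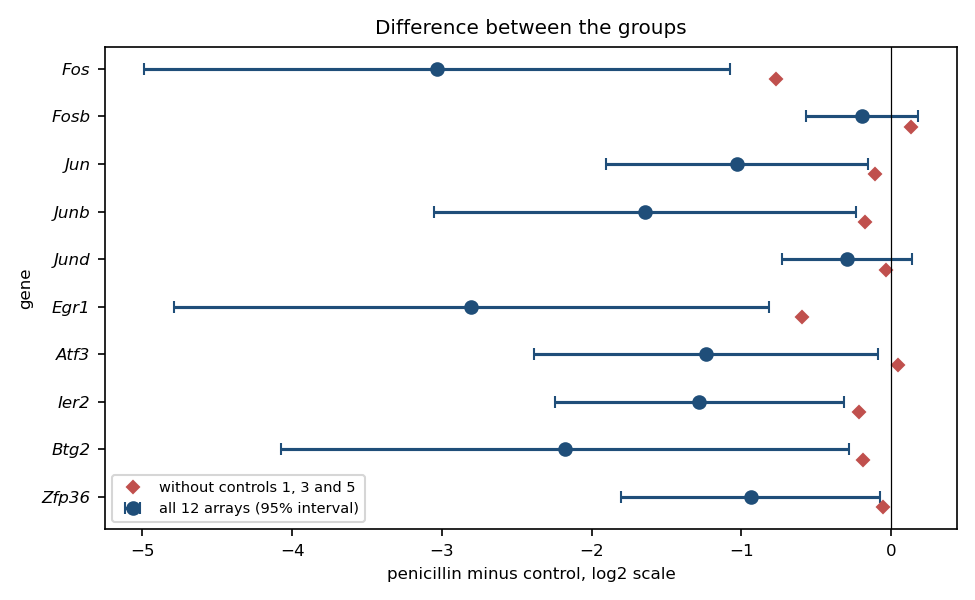
Penicillin minus control on the log2 scale (horizontal axis) for each gene; circles with bars are the limma estimate and its 95% interval over 12 arrays, and diamonds the estimate without control 1, control 3 and control 5. Fos moves from -3.03 to -0.77 and Atf3 from -1.23 to 0.046.

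The 3 high controls did not carry the same profile. Against the penicillin mean, Fos was 34.3-fold higher in control 1, 35.2-fold in control 3 and 50.4-fold in control 5, and Egr1 was 35-fold, 35.2-fold and 27.2-fold higher. Btg2 was 33.3-fold and 32.0-fold higher in control 1 and control 3 but 5.45-fold in control 5, and Junb was 12.0-fold, 12.9-fold and 4.19-fold higher. Control 1 and control 3 differed by less than 0.3 in 9 of 10 members, the exception being the dim Fosb at 0.48. Compared with the mean of those 2 arrays, control 5 was higher in 4 members, Fos (0.54), Jun (0.28), Atf3 (0.06) and the dim Fosb, and lower in 6, led by Btg2 (-2.58) and Junb (-1.57). Each of these is a single liver, so the differences between them have no replicate check. The remaining controls were not uniformly low: control 4 had Fos 2.41-fold above the penicillin mean but Junb at -0.85 and Btg2 at -0.61 on the log2 scale, control 2 had Egr1 3.31-fold above it, and control 6 had Btg2 1.81-fold and Junb 1.79-fold above it.

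**Figure D3:**
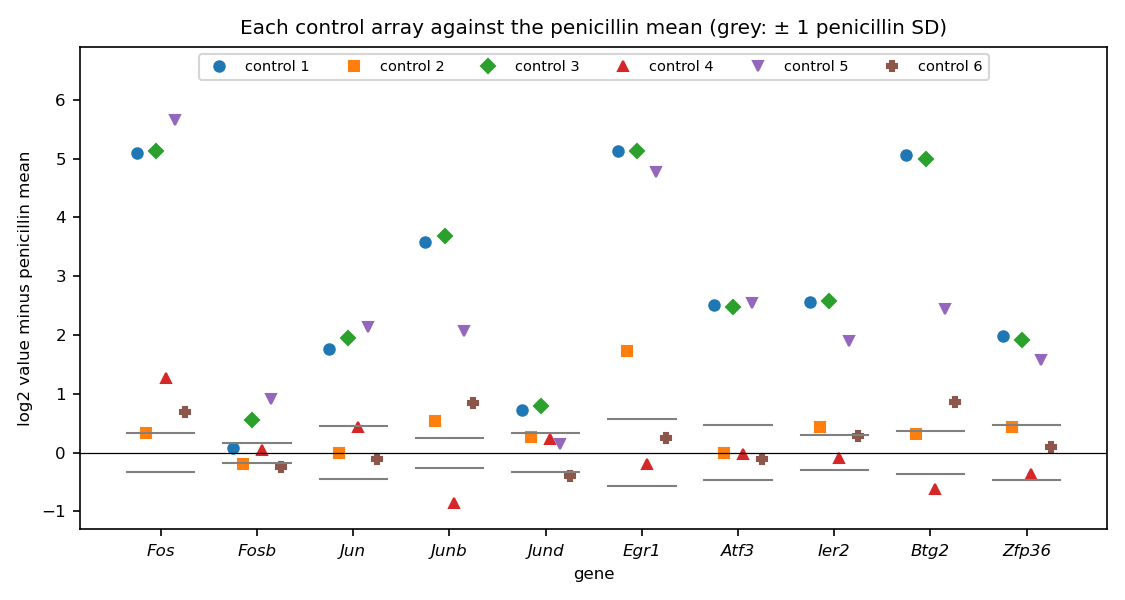
Log2 value of each of the 6 control arrays minus the mean of the 6 penicillin arrays (vertical axis) for each gene; grey lines mark 1 penicillin SD on either side. Control 1 and control 3 nearly coincide, whereas control 5 lies above them for Fos (5.66) and far below them for Btg2 (2.45).

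The spread among controls was the second feature of these genes. All 10 members had a larger SD among the controls than among the penicillin arrays (55.3% of genes tested did), and 8 had a control SD of 1 or more (0.571% of genes tested). The control SD of Fos, 2.51, ranked above that of 99.98% of genes tested, followed by Egr1 at 2.5, Btg2 at 2.42 and Junb at 1.80. Jund (0.43) and Fosb (0.45) had the smallest. Among the penicillin arrays the SD was 0.17 to 0.56, with Egr1 the most variable and Fosb the least. The median penicillin SD over all genes tested was 0.14, so the members varied more than most genes in that group too. By penicillin SD, Egr1 ranked at 98.4% of genes tested and Fos at 92.6%. Junb, the lowest of the 9 members in the filtered table, ranked at 85.5%. Control 1, control 3 and control 5 were the 3 highest of 12 arrays for 8 of the 9 members in the filtered table, all but Jund, and for 2.02% of all genes tested. These arrays were singled out by the levels of these same genes, and the members were chosen with earlier results known. The counts of this paragraph therefore describe the members and are no added support.

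A limma fit to the absolute deviations of each array from its group mean called 6 genes as more widely spread in controls (0.0504% of genes tested) and 0 in the other direction. They were 4 members, Fos (mean deviation 2.48 in controls and 0.27 with penicillin, adjusted p = 5.74e-05), Atf3 (1.40 and 0.42, adjusted p = 3.06e-04), Egr1 (2.42 and 0.48, adjusted p = 0.0239) and Ier2 (1.17 and 0.27, adjusted p = 0.0239), and 2 others named after their values were seen, the chemokine gene Ccl2 and Egr2. Egr2 entered the table only through its 3 high controls, its other arrays being under the filter level, so its call describes no measured penicillin spread. Ccl2 was dim outside those controls too, close to the filter level of 4.73. Its penicillin arrays ran from 4.73 to 5.12, and control 2, control 4 and control 6 from 5.03 to 5.21. Btg2 and Junb had large differences in deviation too, 1.88 and 1.39, without passing (adjusted p = 0.194 and 0.205). The deviations of a group that splits into 3 high and 3 low arrays are all alike, which gives this fit a small error for such a gene. On simulated data its false calls exceeded their nominal share and it missed most increases in SD that were not such a split, so its adjusted p-values are approximate. The members were chosen with earlier results of these data known, so their calls describe them and are no added support. The calls depended on single arrays: only Fos passed without control 1 or without control 3, and with these 2 arrays averaged as 1. With each of the 12 arrays left out in turn, Fos passed every time and Atf3 in 10 cases, but Egr1 failed to pass in 9 and Ier2 in 10. With a variance trend in the fit, Atf3 and Ier2 did not pass (limma adjusted p = 0.309 and 0.270) and Btg2 did (limma adjusted p = 1.69e-05). Without control 1, control 3 and control 5 there were 0 calls, and deviations from the group median left Fos and Atf3.

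**Figure D4:**
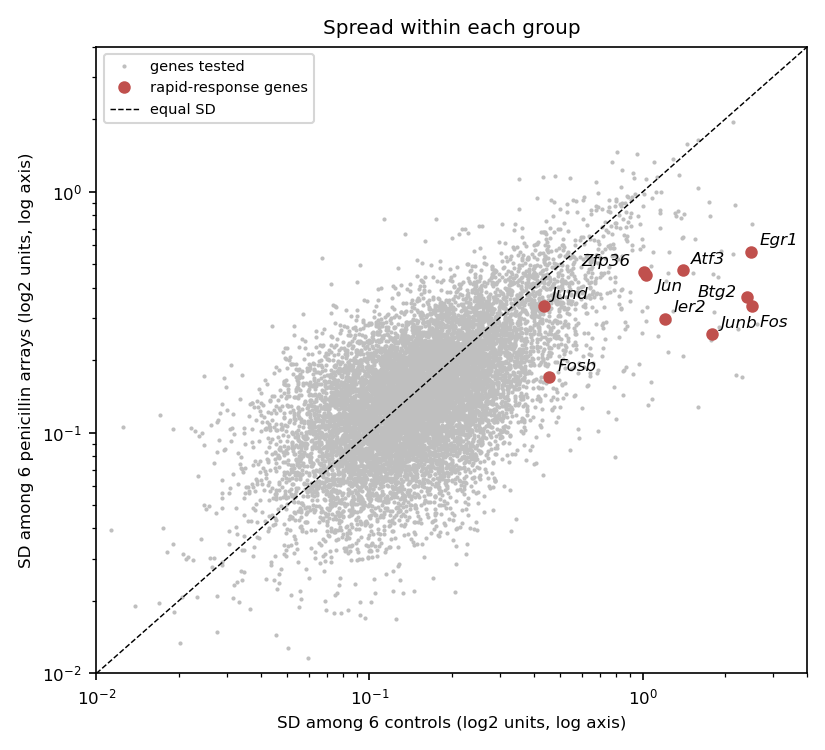
SD among the 6 controls (horizontal) against SD among the 6 penicillin arrays (vertical), both in log2 units on log axes; grey points are the genes tested and red points the 10 members. All 10 lie to the right of the line of equal SD, with Fos at 2.51 and 0.33.

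Second probesets existed for 3 members. For Jun it gave -0.84 (SE 0.39) beside -1.03, and for Btg2 -2.10 (SE 0.73) beside -2.18, with control SDs of 1.05 and 2.10. For Jund the probesets went opposite ways: the dim second probeset gave 0.17 (SE 0.12) and a control SD of 0.17, against -0.29 and 0.43 on the bright one. The single probeset of Zfp36 bears the suffix Affymetrix gives to probe sets that match alternative transcripts of 1 gene.

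Other genes of the pathway, from lists of its known parts, gave 0 calls in mean level, as did all genes tested. In spread, Egr2 and Ccl2 were called, as given above. The list counts of lower genes stand beside 47.2% of all genes tested, and 6318 of 11899 without control 1, control 3 and control 5. Of 10 tested AP-1 and small Maf partners 7 were lower and 3 higher, with a median of -0.08. Fosl2, another Fos protein, averaged 7.57 ± 0.82 in controls and 6.57 ± 0.37 with penicillin (SD, n = 6; limma adjusted p = 0.546), and its difference was -0.40 without control 1, control 3 and control 5. Of 5 Egr and Nab genes 4 were lower. Egr2, a relative of Egr1, stood at 8.70 in control 1, 8.43 in control 3 and 6.79 in control 5, and between 3.79 and 4.24 in all others, under the filter level. Its difference of -1.98 (SE 0.83; limma adjusted p = 0.593) is thus against a level that cannot be told from background, and was 0.043 without those controls. Nab2, a co-repressor that Egr1 induces, gave -0.56 (SE 0.31), and -0.07 without them.

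Upstream genes had small differences, none of which passed. Of 17 kinases and adaptors of the MAP kinase cascade 11 were higher and 6 lower, with a median of 0.02. Map2k6, a kinase that activates p38, gave 0.34 (SE 0.21), and 0.19 without control 1, control 3 and control 5. Of 11 activators that bind the start regions of these genes or switch on those that do, 8 were lower, with a median of -0.06. Creb1 gave -0.17 (SE 0.06; limma adjusted p = 0.546) and the serum response factor Srf -0.10 (SE 0.12). Creb1 stayed at -0.17 without control 1, control 3 and control 5, where Srf turned to 0.12.

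Feedback and decay genes gave 0 calls as well. Of 18 inhibitors of MAP kinases 14 were lower, with a median of -0.13. The ERK phosphatase Dusp6 averaged 11.12 ± 1.03 in controls and 9.77 ± 0.29 with penicillin (SD, n = 6; limma adjusted p = 0.475). Its penicillin arrays all lay below every control, as for 0.151% of all genes tested. The stress phosphatase Dusp1 gave -0.64 (SE 0.33). Without control 1, control 3 and control 5 Dusp6 and Dusp1 were at -0.49 and 0.055, and 9 of 18 inhibitors were lower. Of 9 relatives of Btg2 and Zfp36 and their deadenylase partners 5 were lower, led by the decay factor Zfp36l1 at -0.51 (SE 0.16; limma adjusted p = 0.544), which was -0.27 without those controls.

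Of 37 other immediate early genes 32 were lower and 5 higher, with a median of -0.41, and 12 of the lower ones had an unadjusted p under 0.05. Of all genes tested 47.2% were lower, and 3.66% were lower with an unadjusted p under 0.05. The factor Klf6 gave -0.75 (SE 0.14, limma adjusted p = 0.265), with every penicillin array below every control, as for 0.151% of all genes tested. The small GTPase gene Rhob gave -0.41 (SE 0.11), Ier5 -0.81 (SE 0.22) and Ier3 -1.08 (SE 0.38). Without control 1, control 3 and control 5 the median of the list was -0.06 with 22 of 37 lower, beside 6318 of 11899 genes tested. Klf6, Rhob, Ier5 and Ier3 then gave -0.43 (SE 0.08), -0.21 (SE 0.10), -0.34 (SE 0.16) and -0.26 (SE 0.24). Of 18 genes known as targets of AP-1 or Egr1 11 were lower and 7 higher, with a median of -0.08. Ccl2, which draws monocytes, gave -0.87 (SE 0.31), and the quinone reductase gene Nqo1 0.28 (SE 0.10), neither passing (limma adjusted p = 0.570 for both). Without those controls they were at -0.11 and 0.23.

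The 10 genes whose centred profile over the 12 arrays lay nearest the mean profile of the members were Ddit3, Dusp6, Angptl8, Sertad1, Ccl2, Myc, Ier3, Klf4, Tnfrsf12a and Dnajb1. Their mean absolute distance was 0.23 to 0.47 on the log2 scale, against a median of 1.01 over all other genes tested and 0.26 (Ier2) to 0.98 (Fos) for the members themselves. Ddit3, the stress factor CHOP, stood at 10.27 and 10.13 in control 1 and control 3, at 8.68 in control 5 and at 7.04 to 7.54 in the others. Myc stood at 9.24 and 8.94 in control 1 and control 3 but at 6.89 in control 5, inside the penicillin range of 6.45 to 7.21. Angptl8, a secreted regulator of lipoprotein lipase, was also high in penicillin 5, at 10.23. This ranking describes the 12 arrays and was not tested.

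**Figure D5:**
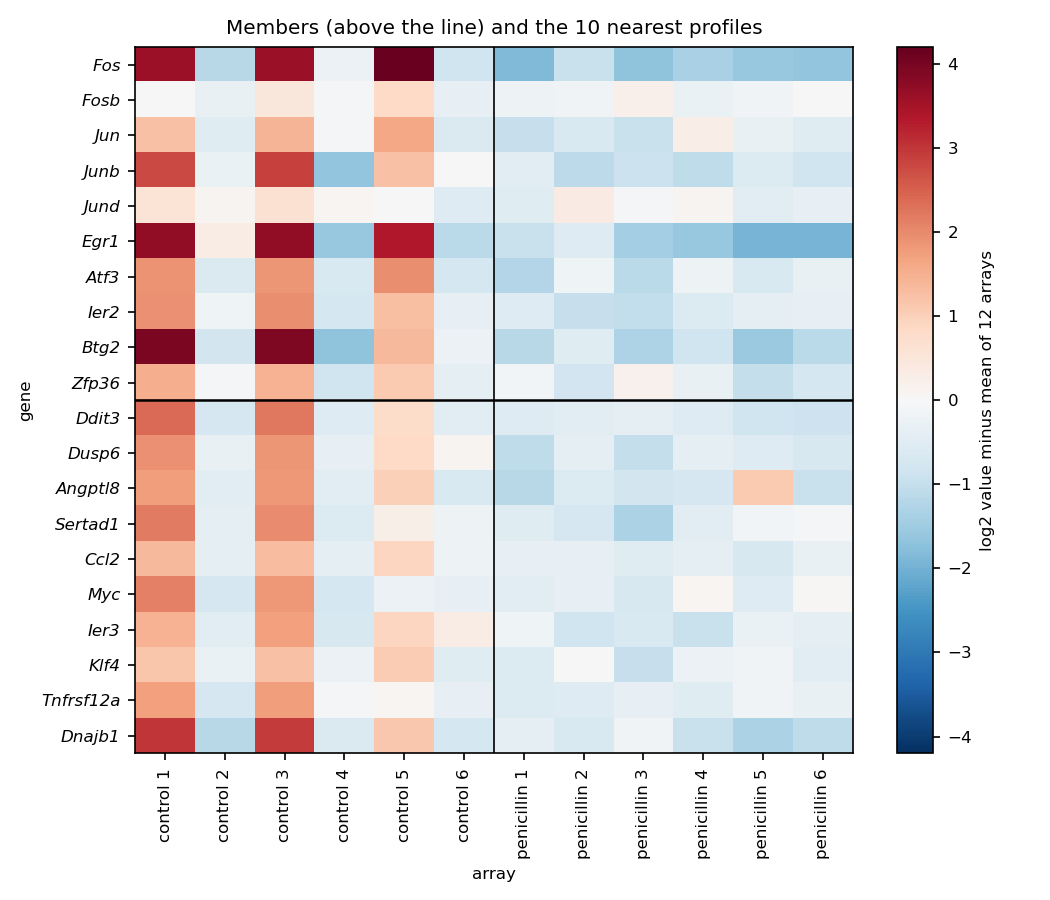
Log2 value minus the gene's mean over the 12 arrays (colour) for the 10 members, above the line, and the 10 nearest profiles, below it; columns are arrays, controls left of the vertical line. The dark columns of control 1, control 3 and control 5 include Fos, Egr1 and Btg2, and Angptl8 is also high in penicillin 5.

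Cytosolic heat shock genes were high in the same 3 controls, and their part in the results was not tested. All 13 tested were lower with penicillin, with a median of -0.48, and their mean stood 1.07, 1.10 and 0.73 above its average in control 1, control 3 and control 5, with 0.12 in penicillin 3 the next highest. Of all genes tested 47.2% were lower. Without those controls 8 of 13 heat shock genes were lower, with a median of -0.04, beside 6318 of 11899 genes tested. The mean of the clock genes was -0.03, -0.07 and -0.13 in control 1, control 3 and control 5, and highest in penicillin 1 (0.39) and control 6 (0.37). This list pools genes that moved in opposite directions, so its mean can hide a shift. Among controls Per3 ran from 4.84 to 7.73 and Clock from 7.11 to 8.66. In control 1, control 3 and control 5 Per3 stood at 6.18, 6.21 and 5.38, and Clock at 8.09, 8.03 and 8.43. The part of the clock in the results was not tested. Of 10 neutrophil markers 8 were measured, and Mpo, Elane, Ngp and Camp, which encode granule proteins, were under the filter level. The summed intensity of the 8 was 276 to 844 in controls and 203 to 257 with penicillin, so the sums did not overlap. Of the 4 markers above the filter, only 2 had groups that did not overlap, so the sum does not describe the list as a whole. These were S100a8 (-1.94, SE 0.42) and S100a9 (-1.63, SE 0.35), which encode the calprotectin subunits. They had every penicillin array below every control, as 0.151% of all genes tested did, without passing (limma adjusted p = 0.304 and 0.299). S100a8 was under the filter level in penicillin 1 and penicillin 3, at 3.59 and 4.39. Csf3r (-0.24) and Cxcr2 (-0.03) overlapped between the groups. On the centred scale control 1, control 3 and control 5 had a mean of 0.73, 0.64 and 0.20 for these markers, which was highest, at 1.27, in control 6, which had Fos at 6.88 and Egr1 at 8.44. Without control 1, control 3 and control 5 S100a8 and S100a9 were at -1.72 and -1.52, and Csf3r and Cxcr2 at -0.29 and -0.12. The part of these markers in the results was not tested. All 12 Kupffer cell and macrophage markers were measured, with a summed intensity of 9982 to 14237 in controls and 9406 to 11916 with penicillin, and all 10 endothelial markers, with 3436 to 4140 and 3269 to 3663. Both ranges overlapped between the groups. Of 8 cholangiocyte markers 6 were measured, at 218 to 263 in controls and 156 to 221 with penicillin.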

How the data were processed

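Liver RNA of 12 mice was measured on Affymetrix arrays. Per the submitters' processing notes the authors used RMA; the deposited intensities are on a linear scale, so log2 was taken here. RMA makes the arrays' distributions alike, so a change shared by most genes is removed. The design had assumed log2 values and provided for this step. The table held 45101 probesets, 34945 of them with 1 gene. Symbols were updated through RefSeq GRCm38.p6. Probesets with a mean under the median (4.73) were left out, and the brightest per gene was kept, leaving 11899 genes and 9 of the 10 members; Fosb was fitted without the filter.

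Groups were compared with limma 3.58.1 in R 4.3.3 (two-sided, Benjamini-Hochberg over all genes, threshold 0.05), as were absolute deviations from the group mean, scaled for group size. Both fits were tested on simulated data, with 50 genes changed at each setting. The mean fit gave 13 false calls and the spread fit 21, above the nominal share in both. The labels do not say whether mice shared cages, and p-values measure the spread between these mice. Array number limits the precision. The members, lists and tests were chosen with earlier results of these data known. Named were the members, up to 4 genes per list by smallest p, and the 10 nearest profiles. Alternatives changed the filter, normalization, weights, variance prior, probesets, pairing, threshold and arrays.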

Additional observations from a re-analysis of the deposited data

Results flagged for a closer look

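In 8 of 196 groups of 6 arrays examined, 1 array lay farther from the rest than Dixon's 95% limit allows; chance alone gives about 1 in 20. None of the 10 members was among them, but the rule looks for 1 lone array. It can hardly flag a gene whose controls split into a high and a low set, so it does not speak to their spread. In controls, Egr4 was lowest in control 1 at 4.45 (next 4.98), and Ighm, an antibody heavy chain, was highest in control 5 at 9.59 (next 8.40). Control 6 was the lone array for 4 genes: the kinase Map2k6 at 6.18 (next 5.61), the antiproliferative gene Btg1 at 9.99 (next 10.78), and the clock genes Hlf at 8.20 (next 7.47) and Cry2 at 8.01 (next 7.30). Among penicillin arrays, Angptl8 was highest in penicillin 5 at 10.23 (next 8.56), and the 3-prime minus 5-prime signal of Gapdh was highest in penicillin 3 at -0.02 (next -0.10).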

How the results depend on the processing

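The number of genes and of members called in mean level was 0 under all 26 alternatives, and 257 of 259 member differences kept their direction; the exceptions, without control 1, control 3 and control 5, were Atf3 (0.046) and Fosb (0.13). The spread calls were less stable, and the cause was not tested. Against 6 genes and 4 members called, leaving out 1 array gave 1 to 37 genes and 1 to 5 members. Omitting control 1, control 3 and control 5, or control 6, penicillin 1, penicillin 5 and penicillin 6, gave 0 genes and 0 members; deviations from the group median gave 3 and 2, and averaging control 1 with control 3, chosen after seeing the data, 1 and 1. The stricter filter gave 3 genes and a variance trend 13, with Atf3 and Ier2 lost and Btg2 gained. The spread difference of Jund (0.029) ran from -0.025 to 0.10 without 1 array and was -0.018 with control 1 and control 3 averaged. Without control 1, control 3 and control 5 those of Jun (-0.094), Atf3 (-0.37), Ier2 (-0.021) and Zfp36 (-0.086) changed sign. Zfp36 has no probeset without a letter suffix. With the replicate number as a block, 1214 genes had an unadjusted p under 0.05, against 950 without it, and 0 genes and 0 members passed. Deviations of same-numbered arrays correlated at 0.25, 0.32, 0.04, 0.31, -0.26 and 0.39 for numbers 1 to 6. The labels do not state that same-numbered arrays are pairs, so the main fits did not pair them. With no detection calls, dim levels such as Fosb cannot be told from background.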
